A study of Mus musculus with 10 samples.

Results

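The genes described here are 37 interferon-stimulated genes, chosen by name as genes that interferons are known to induce, among the 51826 genes in each deposited table, where each of the 37 was listed once. They were measured in inguinal white adipose tissue (iWAT), a subcutaneous fat pad, of wild-type male C57BL/6 mice, with 1 RNA-seq library per mouse. The F0 groups were 2 males fed a control diet (CD) and 2 males fed a low-protein diet (LPD) after weaning, both at 10–12 weeks of age. The F1 groups were 3 offspring of CD fathers and 3 offspring of LPD fathers (pLPD offspring), all 5 weeks old, and both the mothers and, after weaning, the offspring were fed the CD. The diets were compared within each generation, to ask what an LPD did in the males that ate it and in the offspring of fathers that ate it. F0 and F1 mice also differed in age and formed separate sets of libraries, so generation, age and library set cannot be told apart. In whole tissue, fewer cells of a type and less RNA per cell cannot be told apart either.

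Interferons are secreted proteins that cells release when nucleic acid sensors meet viral or misplaced RNA or DNA. Type I interferons bind a receptor made of Ifnar1 and Ifnar2, the kinases Jak1 and Tyk2 on that receptor activate Stat2, among others, and Stat2 acts with Irf9 on a promoter element called the interferon-stimulated response element (ISRE). Interferon gamma acts through another element, the gamma-activated site. The induced genes encode transcription factors, RNA sensors, antiviral effectors and the machinery that presents peptides on class I molecules, and many of them are expressed at a low level in tissue without infection.

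Promoters are shown because the ISRE is what many of these genes share. RefSeq promoter windows on GRCm38.p6, from 250 bases before to 50 bases after the start of each gene, were found for 26 of the 37 genes. The ISRE was searched as GAAANNGAAA, with N for any base, on both strands, and hits that overlapped each other were counted apart. It was present in 14 of the 26 genes (53.8%), and in 3.99% of all 27025 genes with such windows. The gamma-activated site, searched in the same way as TTCNNNGAA, was present in 7 of the 26 (26.9%) and in 9.55% of all genes. Of the 14 matched genes that were higher in F1 than in F0 control mice, as described further on, 8 held the ISRE letters, and of the 12 that did not pass the threshold there, 6 held them. The genes were chosen as interferon-induced, so these shares are a description, and a match of letters is not a measured binding site. The 6 stretches that follow are those of the genes with the ISRE and the smallest unadjusted p-values in the diet comparisons. They are printed 5′ to 3′ on the strand of the gene, with the ISRE letters in capitals, read as TTTC first where the match is on the opposite strand. Ifit3 (chr19:34583348-34583441, + strand), Ifit1 (chr19:34640760-34640838, + strand) and Oas1a (chr5:120907505-120907570, − strand) have 2 hits each, as does Bst2 (chr8:71537562-71537627, − strand), and in Bst2 and Oas1a the 2 hits overlap. Stat2 (chr10:128270251-128270310, + strand) and Rsad2 (chr12:26456538-26456597, − strand) have 1 hit each.
Ifit3: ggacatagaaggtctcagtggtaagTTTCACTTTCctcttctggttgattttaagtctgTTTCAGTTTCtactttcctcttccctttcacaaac
Ifit1: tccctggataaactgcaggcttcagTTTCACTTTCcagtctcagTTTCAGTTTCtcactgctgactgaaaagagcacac
Bst2: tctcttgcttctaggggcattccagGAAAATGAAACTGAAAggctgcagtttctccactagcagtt
Stat2: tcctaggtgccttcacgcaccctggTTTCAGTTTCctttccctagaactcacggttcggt
Rsad2: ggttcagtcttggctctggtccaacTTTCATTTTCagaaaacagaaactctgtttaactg
Oas1a: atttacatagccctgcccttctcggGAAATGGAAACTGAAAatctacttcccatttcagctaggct

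Between 6351075 and 10044546 reads per mouse lay on exons, so that 3 reads, the least that was taken to show a gene at all, stood for 0.299 to 0.472 CPM, the counts scaled to 1000000 exon reads, as far as counting error alone goes. The lowest count of any of the 37 genes in a mouse was 22 reads, for Ifi44, and all 37 passed the filter on low counts in every comparison. The tissue label was checked with 8 adipocyte markers, which all had reads in every group and summed to 11278 to 18849 CPM. The pLPD offspring stood apart in library make-up: exons held 39.3% to 45.4% of their gene reads, while the other F1 mice had 49.2% to 51.2% and F0 mice had 51.4% to 54.7%. The share of gene reads on mitochondrial rRNA also differed by diet without overlap, at 13.5% to 18.2% in pLPD offspring and 9.29% to 10.5% in offspring of CD fathers, and at 10.9% to 12.4% in LPD-fed and 9.59% to 9.85% in CD-fed F0 males, and its part in the diet comparisons was not tested. The p-values measure the spread between these mice. The paper states that the F1 mice had different mothers but not which of them shared a father. The F1 p-values take each mouse as independent, so they may not measure the spread between fathers.

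Per length of transcript, the 37 genes spanned a wide range. On the RPKM scale, the mean level over the 10 mice was highest for B2m (535), the light chain of class I molecules, followed by Ifi27 (85.5), a small mitochondrial protein gene, Bst2 (18.5), which encodes the virus-tethering protein tetherin, Ifit3 (16.9) and Gbp2 (13.6). It was lowest for Ifi44 (0.479) and Mx2 (0.806). In 28 genes at least 97% of the exon reads matched that gene alone. In the other 9 genes the share was lower, from 41.0% to 90.5%, among them Cxcl10 (41.0%), Oas1a (58.1%), B2m (58.7%), Ifit3 (59.4%) and Usp18 (74.4%), and the values of these genes are uncertain to that extent. In the annotation of the files, Cxcl10 also lies within Art3, on the opposite strand, and shares 2252 bases with it, and Art3 had 661 to 1688 exon reads per mouse against 26 to 111 for Cxcl10. Whether reads were counted by strand is not given in the sources used here.

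**Figure D1:**
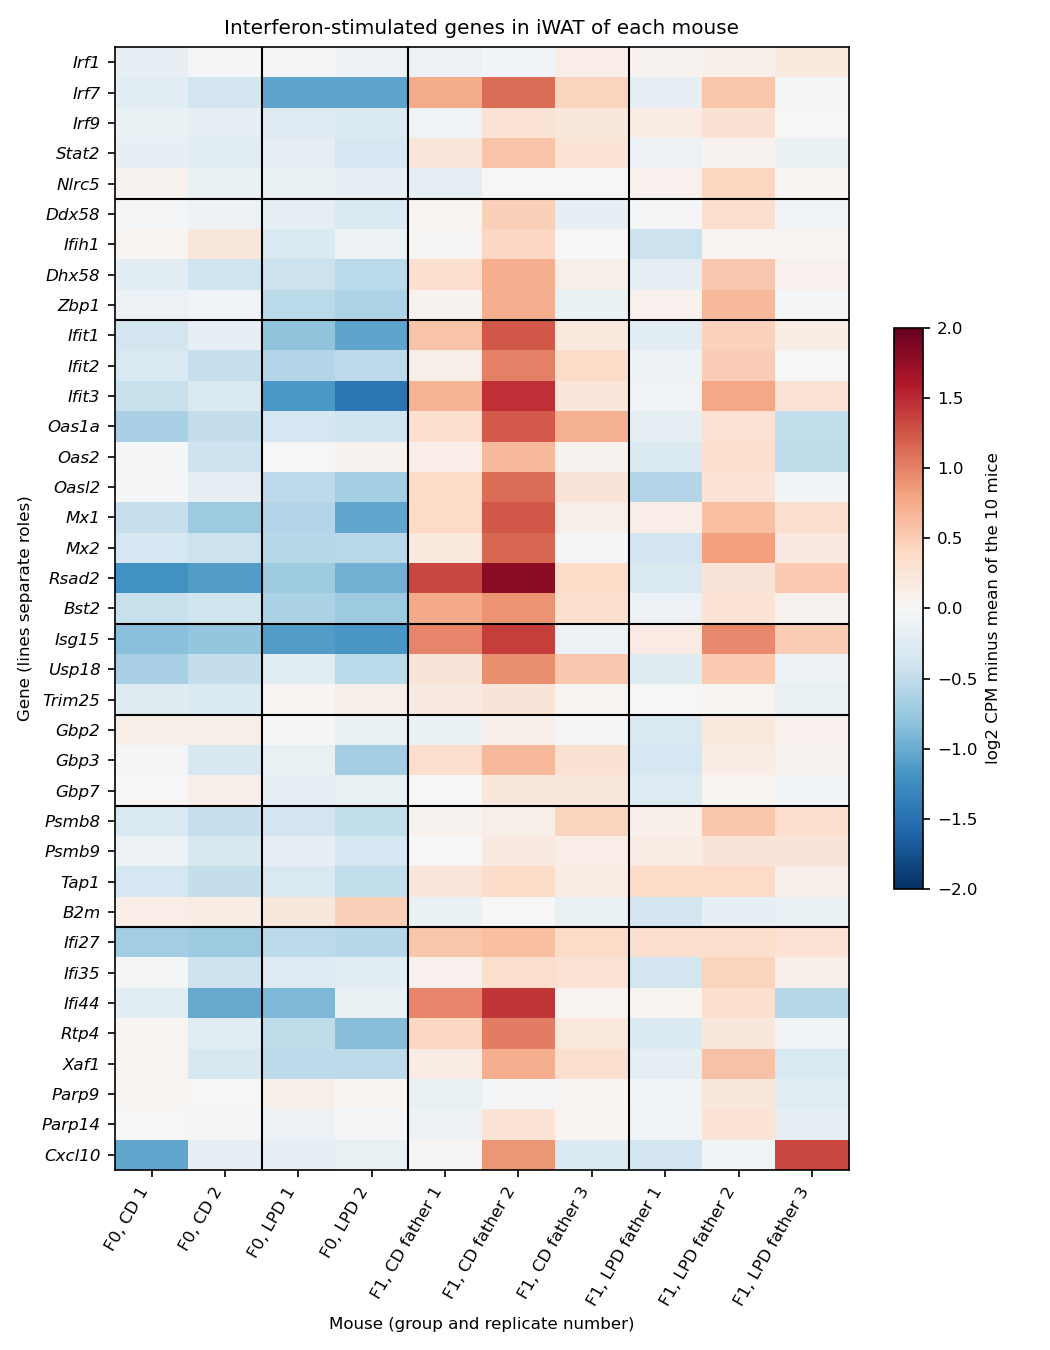
Expression of the 37 genes (rows, grouped by role) in each of the 10 mice (columns), as log2(CPM + 0.5) minus the mean of the 10 mice on a scale from −2 (blue) to 2 (red). Many antiviral effectors are blue in the 4 F0 mice and red in most but not all F1 mice. The deepest red is in offspring of CD fathers replicate 2, which was the highest F1 mouse for 26 of the 37 genes. In pLPD replicate 1 the median over the 37 genes lay below the mean of the 10 mice, at −0.12.

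In F0 mice, the LPD lowered 2 of the 37 genes past the threshold, an adjusted p under 0.05 in edgeR's quasi-likelihood test over 14581 genes, and raised none. Over all genes tested, 1.32% were lower and 1.18% were higher past this threshold. The 2 genes were Irf7, the transcription factor that amplifies type I interferon production, and Ifit3, an antiviral effector of the Ifit family. At an unadjusted p under 0.05, 10 of the 37 were lower, against 8.20% of all genes, and 1 was higher, against 7.53%. Of the 37 log2 fold changes, 25 were negative and 12 positive, against 49.9% and 50.1% of all genes, and their median was −0.13, against 0.00 over all genes tested. The median was −0.05 without CD replicate 1 and −0.21 without CD replicate 2. The LPD mice lay below both CD mice in 18 genes (23.6% of all genes) and above both in 7 (22.8% of all genes).

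Among the transcription factors, Irf7 was expressed at 54.1 and 48.6 CPM in the 2 CD mice and at 29.9 CPM in each of the 2 LPD mice. The groups did not overlap, and the LPD mice were nearly equal. Its log2 fold change was −0.78 (SE 0.10, adjusted p = 0.0108 in edgeR). All exon reads of Irf7 (ENSMUSG00000025498, mm10 chromosome 7, 141262706 to 141266481) matched it alone, and it shares 45 bases with Phrf1 on the other strand. When any 1 of the 4 mice was left out, the log2 fold change was −0.85 to −0.70. Each of these fits has a lone mouse in 1 group, which is assumed to vary like the other group. In a fit of all 10 libraries, where the spread of the F1 mice enters the test, it was the same size (−0.78) with an adjusted p of 0.159, and on the 12 to 41 intron reads per mouse it was −0.39 with an adjusted p of 0.756. Irf1, Irf9, Stat2 and Nlrc5, which drives class I genes, had log2 fold changes between −0.13 and 0.03 and none passed the threshold.

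All 4 nucleic acid sensors were lower in both LPD mice than in both CD mice, as were 23.6% of all genes, and none passed the threshold. Zbp1, a sensor of Z-form nucleic acids, was at 29.7 and 30.6 CPM in CD mice and at 22.0 and 20.8 CPM in LPD mice (log2 fold change −0.49, SE 0.11, adjusted p = 0.0591 in edgeR). Ifih1, which encodes the long double-stranded RNA sensor MDA5, was at 58.2 and 65.6 CPM and then at 45.7 and 52.1 CPM (log2 fold change −0.34, SE 0.10, adjusted p = 0.135 in edgeR). Ddx58 (RIG-I) and its relative Dhx58 had log2 fold changes of −0.17 and −0.18.

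The antiviral effectors did not move as 1 block in F0 mice. Ifit3 (ENSMUSG00000074896, mm10 chromosome 19, 34583531 to 34588731) was at 38.5 and 42.9 CPM in CD mice and at 23.5 and 18.7 CPM in LPD mice. The groups did not overlap, and the log2 fold change was −0.94 (SE 0.13, adjusted p = 0.0136 in edgeR). Without LPD replicate 2, in a fit with a lone LPD mouse, the value was −0.79 and did not pass the threshold. In the fit of all 10 libraries the adjusted p was 0.291, and on intron reads it was 0.261. Ifit3 shares reads with its near copy Ifit3b, which is not among the 37 genes and also fell (log2 fold change −0.99, SE 0.17, adjusted p = 0.0248 in edgeR), so the reads of the pair cannot be fully told apart. On uniquely matching reads Ifit3 changed by −0.98 with an adjusted p of 0.0144, within a range of 3.49e-11 to 0.291 over the alternatives that left no mouse out.

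Their neighbour Ifit1 was at 19.8 and 22.7 CPM in CD mice and at 14.4 and 12.0 CPM in LPD mice. Its log2 fold change of −0.68 (SE 0.15) lay just outside the threshold (adjusted p = 0.0572 in edgeR). Oasl2, an oligoadenylate synthetase-like protein gene, had a log2 fold change of −0.51 (SE 0.14, adjusted p = 0.0973). Ifit2, Mx1, Mx2 and Bst2 had negative log2 fold changes from −0.26 to −0.18, and those of Oas1a, Oas2 and Rsad2 were positive, from 0.20 to 0.35, with both LPD mice above both CD mice, but on uniquely matching reads Oas1a was at −0.07 and on intron reads Rsad2 was at −0.19, so the direction of these 2 genes depends on the reads counted. Over the 10 effectors the median log2 fold change was −0.20, 7 were negative, and Ifit3 alone passed the threshold.

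In the ISG15 system, a ubiquitin-like tag with its enzymes, the F0 values pointed both ways. Trim25, a ubiquitin ligase that activates RIG-I, was at 79.9 and 77.3 CPM in CD mice and at 96.98 and 102 CPM in LPD mice, and its log2 fold change of 0.34 (SE 0.08) did not pass the threshold (adjusted p = 0.0764 in edgeR). Isg15, the tag itself, was at 3.81 and 3.995 CPM in CD mice and at 3.05 and 2.92 CPM in LPD mice (log2 fold change −0.38). Usp18, the protease that removes the tag, overlapped between the diets (log2 fold change 0.20).

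The 3 guanylate binding protein genes, whose products attack intracellular pathogens, had F0 log2 fold changes from −0.21 to −0.20. Psmb8, Psmb9 and Tap1, which cut and transport peptides for class I molecules, had F0 log2 fold changes between −0.04 and 0.02, and that of B2m was 0.22. In the remaining genes, Rtp4 was at 20.7 and 17.4 CPM in CD mice and at 14.0 and 10.9 CPM in LPD mice (log2 fold change −0.61, SE 0.17, adjusted p = 0.113 in edgeR), and Xaf1 had a log2 fold change of −0.40 (adjusted p = 0.268 in edgeR). For 2 mice against 2, the smallest exact permutation p for a gene is 0.333.

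**Figure D2:**
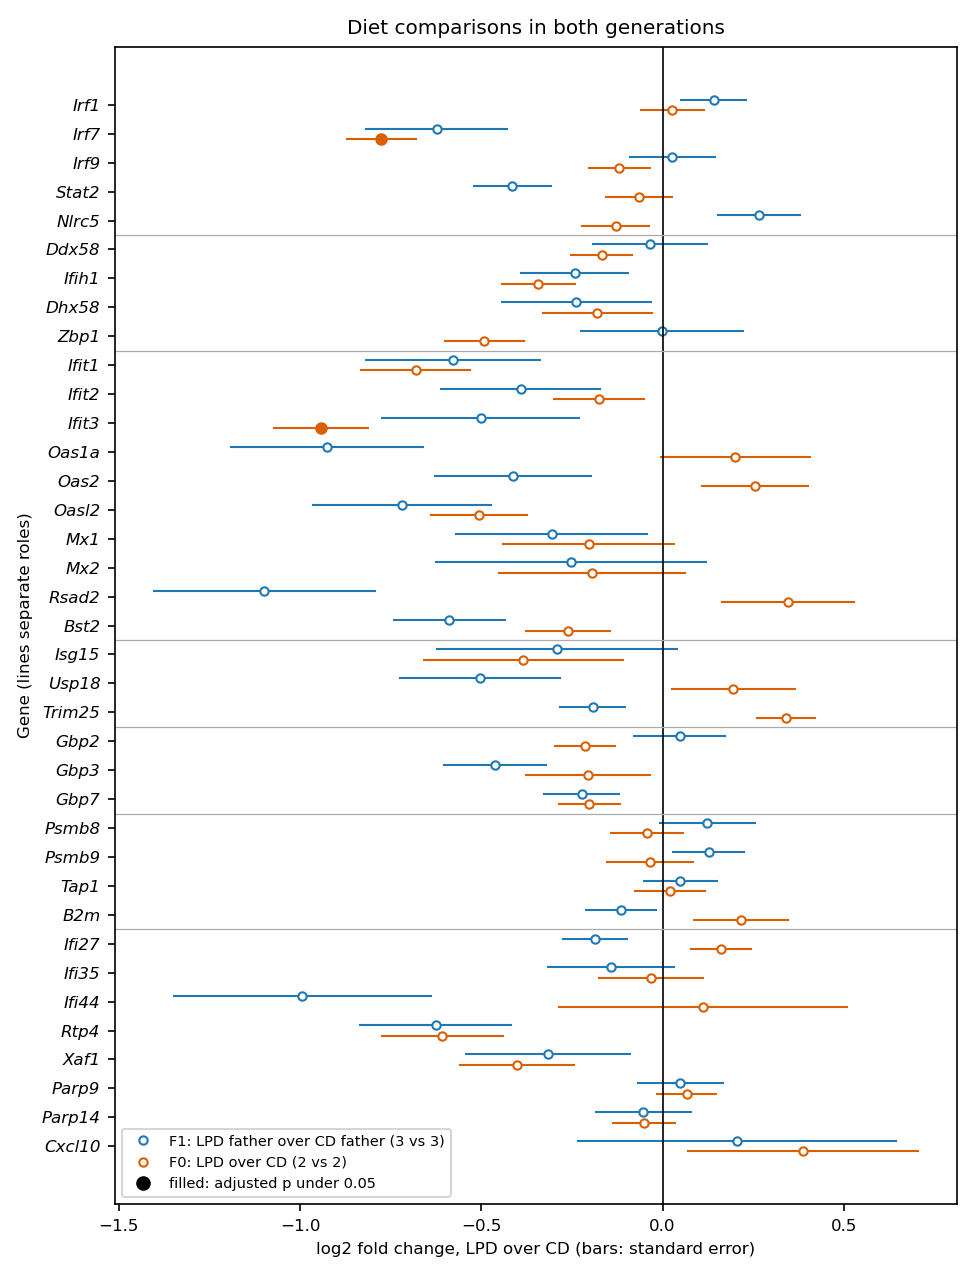
Log2 fold change of each of the 37 genes for LPD over CD, with bars of 1 standard error, in F0 mice (orange, 2 against 2) and for the paternal diets in F1 mice (blue, 3 against 3). The only filled points, with an adjusted p under 0.05, are Irf7 (−0.78) and Ifit3 (−0.94) in F0, while 28 of the 37 F1 points lie left of 0.

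In F1 mice, no interferon-stimulated gene passed the threshold between pLPD offspring and offspring of CD fathers, in edgeR's quasi-likelihood test over 14049 genes, of which 1.02% were lower and 0.142% were higher past it. At an unadjusted p under 0.05, 11 of the 37 genes were lower in pLPD offspring, against 8.76% of all genes, and 1, Nlrc5, was higher, against 6.57%. The count of the 37 past the adjusted threshold was 4 by edgeR's likelihood ratio test and 3 by DESeq2, all lower, and 0 by limma on log2 RPKM. Of all 14049 genes, 437 were lower by the likelihood ratio test and 301 by DESeq2. Of the 37 log2 fold changes 28 were negative and 9 positive, against 48.6% and 51.4% of all genes, with a median of −0.24 against 0.01 over all genes tested. The 3 pLPD offspring lay below all 3 offspring of CD fathers in 5 genes, Bst2, Stat2, Oas1a, Gbp3 and Ifi27 (10.9% of all genes), and above them in 1 (9.21% of all genes).

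Irf7 was at 105, 137 and 85.2 CPM in the offspring of CD fathers and at 56.0, 92.6 and 61.6 CPM in pLPD offspring. Replicate 2 of the latter lay above CD replicate 3, so there was overlap, and the log2 fold change was −0.62 (SE 0.20, adjusted p = 0.162 in edgeR). Stat2, a transcription factor of the type I pathway, was at 83.0, 104 and 84.9 CPM in the offspring of CD fathers and at 65.1, 73.5 and 64.2 CPM in pLPD offspring, without overlap. Its log2 fold change was −0.41 (SE 0.11, adjusted p = 0.0996 in edgeR). Nlrc5 was at 126, 143 and 144 CPM and then at 153, 194 and 147 CPM, also without overlap, with a log2 fold change of 0.27 (SE 0.12, adjusted p = 0.304). Irf1 and Irf9 had log2 fold changes of 0.14 and 0.03, and the 4 sensors lay between −0.24 and 0.00.

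The 10 antiviral effectors were all on the lower side in pLPD offspring (median log2 fold change −0.54), and none passed the threshold. Rsad2, which encodes viperin, an enzyme that makes a chain-terminating nucleotide, was at 47.9, 66.9 and 24.3 CPM in the offspring of CD fathers. In pLPD offspring it was at 15.2, 22.4 and 27.3 CPM. The groups overlapped in 1 mouse of each, and the log2 fold change was −1.10 (SE 0.31, adjusted p = 0.115 in edgeR), the most negative value among the 37 genes. Bst2 was at 55.7, 61.1 and 40.7 CPM in the offspring of CD fathers and at 30.0, 39.6 and 34.4 CPM in pLPD offspring, without overlap (log2 fold change −0.59, SE 0.16, adjusted p = 0.0996 in edgeR).

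Oas1a, an oligoadenylate synthetase that arms RNase L, was at 11.6, 22.3 and 15.5 CPM in the offspring of CD fathers and at 7.96, 11.4 and 6.39 CPM in pLPD offspring, without overlap (log2 fold change −0.93, SE 0.27, adjusted p = 0.126 in edgeR). Oasl2 and Ifit1 overlapped between the groups, at log2 fold changes of −0.72 (SE 0.25, adjusted p = 0.195) and −0.58 (SE 0.24, adjusted p = 0.285 in edgeR). For Ifit3, called in F0 mice, the F1 log2 fold change was −0.50 (SE 0.28) with overlapping groups, at 84.2, 145 and 62.4 CPM against 49.9, 90.3 and 64.4 CPM. For 3 mice against 3, the smallest exact permutation p for a gene is 0.1, which each of the genes without overlap reached.

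Other genes that were lower at an unadjusted p under 0.05 in pLPD offspring were Gbp3 (log2 fold change −0.46), without overlap, and Rtp4 (−0.63), Ifi44 (−0.99) and Usp18 (−0.50), with overlap. The class I genes Psmb8, Psmb9 and Tap1 had positive log2 fold changes from 0.05 to 0.13 and B2m had −0.11, so none of the 4 moved beyond its spread between mice. Cxcl10, a chemokine that draws T cells, ranged from 4.90 to 17.3 CPM among the pLPD offspring alone.

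**Figure D3:**
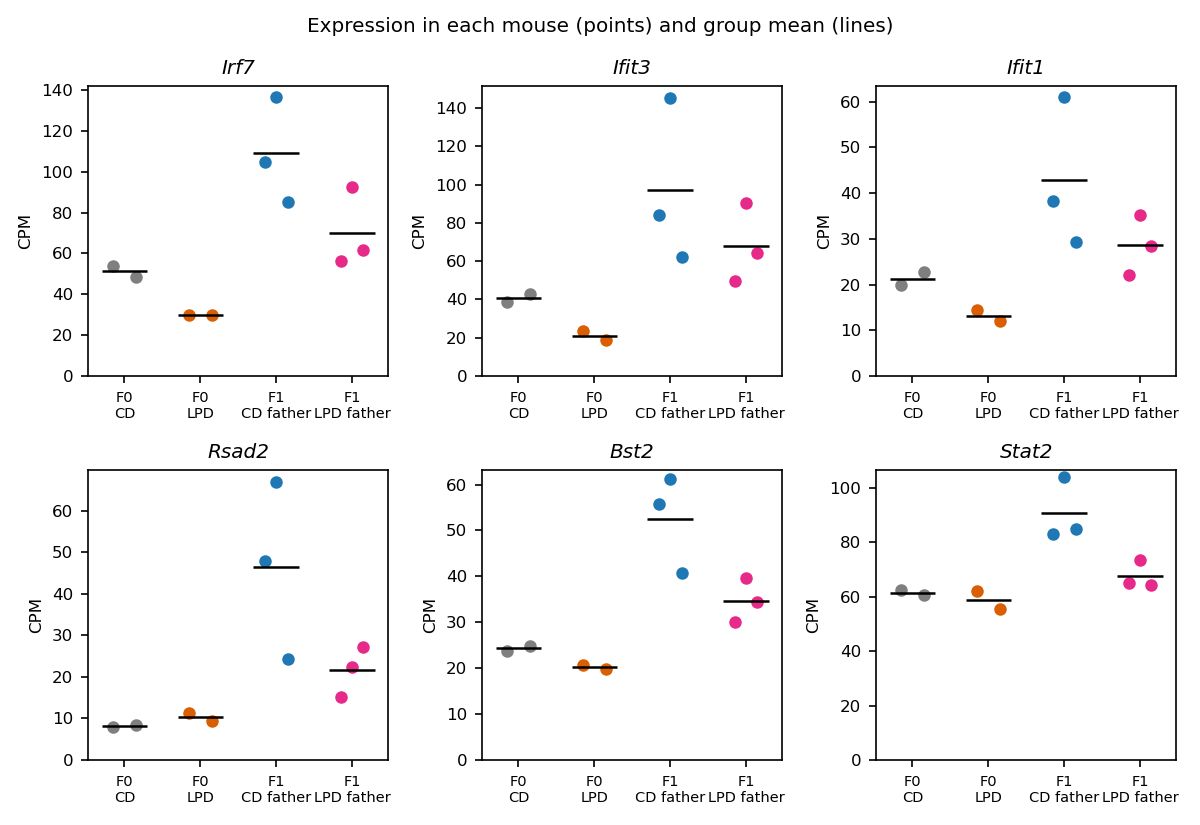
CPM of Irf7, Ifit3, Ifit1, Rsad2, Bst2 and Stat2 in each mouse (points) with the group mean (lines), each panel on its own axis from 0. Irf7 and Ifit3 fall from CD to LPD in F0 mice without overlap, whereas Bst2 and Stat2 are separated by paternal diet in F1 mice, and Rsad2 is at 7.83 to 11.2 CPM in F0 mice and 15.2 to 66.9 CPM in F1 mice.

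The F1 values depended on single mice. Offspring of CD fathers replicate 2 was the highest F1 mouse for 26 of the 37 genes, against 17.6% of all genes, and pLPD replicate 1 was the lowest for 18, against 20.7% of all genes. The median over the 37 genes of log2 CPM relative to the F1 mean was −0.02, 0.47 and −0.02 in the 3 offspring of CD fathers and −0.35, 0.12 and −0.17 in the 3 pLPD offspring, so the groups overlapped. Without CD replicate 2 the median log2 fold change of the 37 genes shrank from −0.24 to −0.08, without pLPD replicate 1 to −0.14, and without pLPD replicate 2 it was −0.45. Without CD replicate 3, 5 of the 37 genes passed the threshold, all lower, as did 370 of all 14322 genes tested. Among the 5 were Bst2, Rsad2 and Irf7 (adjusted p of 0.0101, 0.00291 and 0.0437 in edgeR). With exon share added to the model as a covariate, the median was 0.23 and 27 of the 37 values were positive, with Bst2 and Stat2 at −0.23 and Rsad2 at −0.22, so the direction of the F1 median depends on whether library make-up is in the model. Exon share separated the F1 groups without overlap (39.3% to 45.4% in pLPD offspring, 49.2% to 51.2% in offspring of CD fathers). This fit therefore cannot tell exon share from paternal diet, and its diet values are uncertain (SE of Bst2 0.29, against 0.16).

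**Figure D4:**
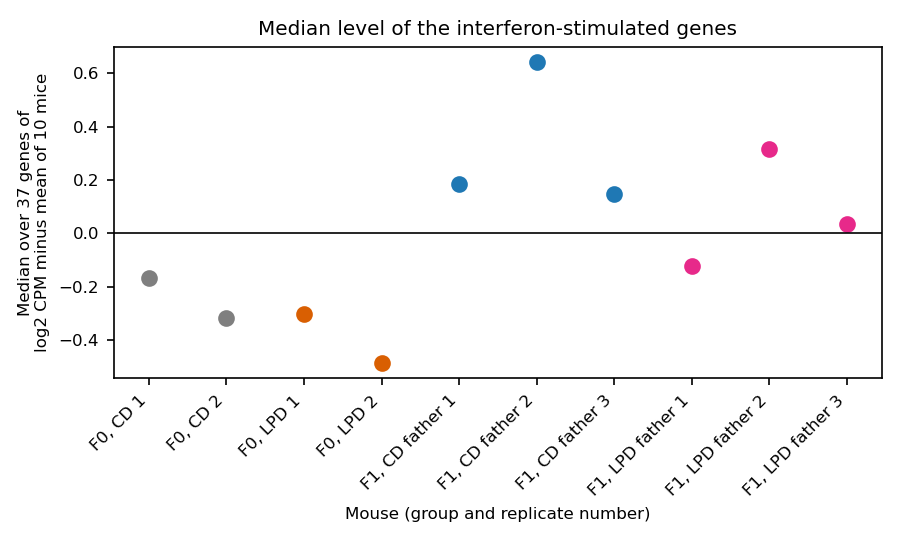
Median over the 37 genes of log2 CPM minus the mean of the 10 mice, 1 point per mouse, coloured by group. The 4 F0 mice lie between −0.49 and −0.17, 5 of the 6 F1 mice lie above 0, and offspring of CD fathers replicate 2 is highest at 0.64.

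Whether the 2 generations differed in their diet response was tested by an interaction term in a fit of all 10 libraries, the same libraries as in the 2 diet comparisons. None of the 37 genes passed the threshold, while 0.357% of 15111 genes had a higher and 0.893% a lower response in F1 past it. At an unadjusted p under 0.05, 6 of the 37 genes were lower and 1 was higher, against 7.58% and 4.91% of all genes. Past the adjusted threshold, 1 of the 37 was lower in edgeR's likelihood ratio test and 1 in DESeq2. Of all 15111 genes, 368 and 243 were lower in these 2 tests. Of the 37 differences, 15 were positive and 22 negative, against 49.6% and 50.4% of all genes. Trim25 lay just outside the threshold. Its F0 log2 fold change was 0.34, and it was at 108, 113 and 97.7 CPM in the offspring of CD fathers and 93.7, 97.8 and 85.3 CPM in pLPD offspring, so that the F1 response minus the F0 response was −0.54 on the log2 scale (SE 0.13, adjusted p = 0.0610 in edgeR). It passed in 4 of 12 other settings, and, of the fits without 1 mouse, in that without offspring of CD fathers replicate 3 (adjusted p = 0.0294 in edgeR). The differences for Rsad2 (−1.45, SE 0.51, adjusted p = 0.226) and Oas1a (−1.14, SE 0.41, adjusted p = 0.236) were larger and less precise in the same edgeR fit.

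Antiviral effectors and the ISG15 system were the groups with the highest share of genes past the threshold between the control mice of the generations. Of the 37 genes, 19 were higher past the threshold in the 3 offspring of CD fathers than in the 2 CD-fed F0 males, and none was lower, in edgeR's quasi-likelihood test over 15111 genes, of which 10.1% were higher and 8.78% lower past it. The log2 fold change was positive in 33 genes and negative in 4, against 50.9% and 49.1% of all genes, and its median was 0.63, against 0.01 over all genes. At an unadjusted p under 0.05, 26 genes were higher and 1 lower, against 17.2% and 15.6% of all genes. All 3 F1 mice lay above both F0 mice in 26 genes and below both in 2, against 25.2% and 24.7% of all genes. This comparison takes its controls from the 2 diet comparisons, so it is not independent of them, and it cannot separate age from generation or library set.

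All 10 antiviral effectors were higher in F1 control mice without overlap, and 7 of them passed the threshold. Rsad2 was at 7.83 and 8.39 CPM in the 2 F0 controls, far below the 24.3 CPM of the lowest F1 control, with a log2 fold change of 2.52 (SE 0.36, adjusted p = 0.000499 in edgeR). Mx1, a dynamin-like antiviral GTPase, was at 8.06 and 6.59 CPM in F0 and at 15.1, 27.3 and 12.2 CPM in F1 (log2 fold change 1.33, SE 0.31, adjusted p = 0.00919 in edgeR). Oas1a was at 5.71 and 6.49 CPM in F0 controls, and its log2 fold change was 1.44 (SE 0.28, adjusted p = 0.00383). Bst2 was at 23.8 and 24.8 CPM in F0 controls, with a log2 fold change of 1.11 (SE 0.16, adjusted p = 0.000549 in edgeR). The other 3 that passed were Ifit1, Ifit2 and Ifit3, and Oas2, Oasl2 and Mx2 did not.

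All 3 genes of the ISG15 system passed as well. Isg15 rose from 3.81 and 3.995 CPM in F0 controls to 14.6, 19.6 and 6.59 CPM in F1 controls, a log2 fold change of 1.80 (SE 0.39, adjusted p = 0.00647 in edgeR). Usp18 and Trim25 had log2 fold changes of 1.199 (SE 0.24) and 0.43 (SE 0.09). Among the transcription factors Irf7 (log2 fold change 1.09, SE 0.21, adjusted p = 0.00317) and Stat2 (0.56, SE 0.11, adjusted p = 0.00410 in edgeR) were higher, and Irf1, Irf9 and Nlrc5 did not pass.

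Ifi27 had the smallest p-value of the 37 genes. It was at 153 and 151 CPM in F0 controls and at 367, 380 and 324 CPM in F1 controls, and its log2 fold change was 1.23 (SE 0.09, adjusted p = 7.38e-06 in edgeR). In class I presentation, Tap1 (0.67, SE 0.11) and Psmb8 (0.61, SE 0.14) were higher on the log2 scale, with adjusted p of 0.00131 and 0.01003 in edgeR, while B2m was at 1024 and 1035 CPM in F0 controls and at 847, 926 and 837 CPM in F1 controls. Of the 4 sensors Dhx58 alone passed, and of the 3 guanylate binding protein genes Gbp3 alone. The remaining 2 that passed were Ifi44 and Rtp4, the latter just inside the threshold (adjusted p = 0.0460 in edgeR) and Oasl2 just outside it (adjusted p = 0.0531).

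**Figure D5:**
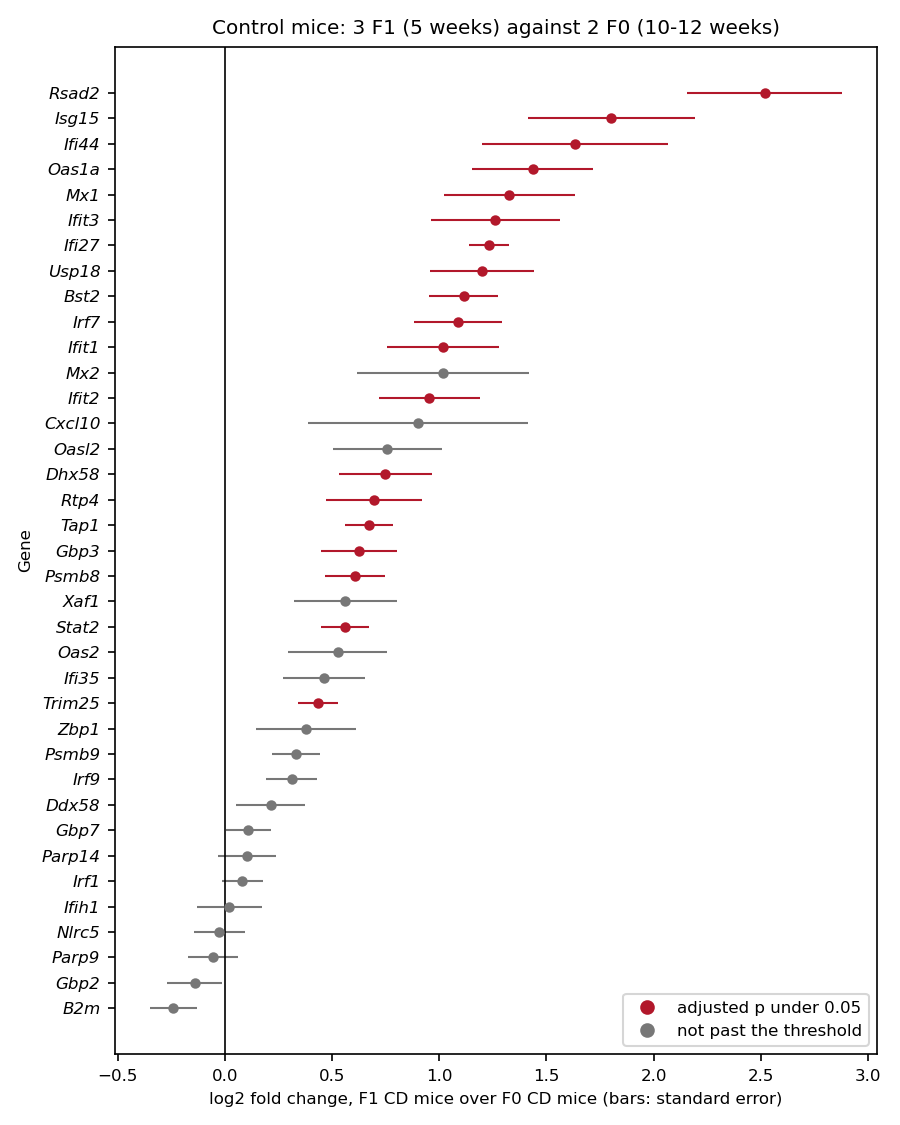
Log2 fold change of each of the 37 genes in the 3 offspring of CD fathers over the 2 CD-fed F0 males, with bars of 1 standard error, sorted by size. The 19 red points (adjusted p under 0.05) all lie right of 0, led by Rsad2 at 2.52, and 4 genes lie left of 0.

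Taking both diets together adds the LPD mice to the same control mice, so what follows is not independent of the comparison above. Every one of the 6 F1 mice lay above every one of the 4 F0 mice in 14 of the 37 genes, against 10.2% of all genes, and below them in 1, B2m, against 9.87%. The 14 included 5 effectors, 3 transcription factors and Psmb8, Psmb9 and Tap1. The number of genes past the threshold between control mice depended on the mice, as it was 12 without F0 CD replicate 1, 6 without F0 CD replicate 2 and 15 without offspring of CD fathers replicate 2, with median log2 fold changes of 0.74, 0.53 and 0.43. By limma on log2 RPKM the number was 9 or 8, depending on the pseudocount, where 702 or 725 of 15111 genes were higher. On intron reads it was 4 of 35 tested, where 780 of 14823 genes were higher.

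The interferon genes themselves had few or no reads in all groups. Of 21 genes encoding type I, II and III interferons, 16 had no read in any of the 10 mice, and no gene had more than 8 reads in a mouse, so none could be tested. The exceptions were Ifnk with 31 reads over all mice, Ifng with 15, Ifnz with 14, and Ifna6 and Ifna7 with 1 each. In 1 mouse the 21 genes together had at most 12 reads, which is 1.61 CPM.

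The receptors and the relay below them were expressed and showed no change past the threshold with diet. Ifnar1 was at 101 ± 1.005 CPM in CD-fed and 99.4 ± 3.15 CPM in LPD-fed F0 males (SD, n = 2), and at 93.9 ± 2.80 CPM in offspring of CD fathers and 96.9 ± 2.11 CPM in pLPD offspring (SD, n = 3). None of the 5 JAK-STAT relay genes, the 8 inhibitors, the 15 sensing and induction genes or the 5 tested receptor genes out of 6 passed the threshold in either diet comparison. The smallest adjusted p-values with diet were those of Ifngr2 (log2 fold change 0.42, adjusted p = 0.0638) and Socs3 (0.89, adjusted p = 0.0735) in F0 mice, from edgeR. Between control mice, 1 of 6 receptor genes (Ifngr1), 1 of 8 inhibitors (Pias1) and 1 of 15 sensing and induction genes (Irf2) were lower in F1, against 8.78% of all genes. There 2 of the 15 sensing and induction genes (Myd88 and Ikbke) were higher, against 10.1% of all genes.

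A further 54 genes known to be induced by interferons were read alongside. In F0 mice 1 was lower with the LPD, Ifit3b, against 1.32% of all genes. There 44 of the 54 log2 fold changes were negative, against 49.9% of all genes, with a median of −0.12. In F1 mice 1 was lower in pLPD offspring, Lgals3bp, which encodes a secreted galectin-binding glycoprotein, at 375 ± 41.9 CPM in offspring of CD fathers and 216 ± 21.4 CPM in pLPD offspring (SD, n = 3, log2 fold change −0.78, SE 0.11, adjusted p = 0.00984 in edgeR). The signs of the 54 were divided in F1, with 26 positive and 28 negative and a median of −0.02. At an unadjusted p under 0.05 in edgeR, 10 of the 54 were lower and 0 higher, against 8.76% and 6.57% of all genes. Between control mice 10 of the 54 were higher in F1 and 2 were lower, against 10.1% and 8.78% of all genes, with a median of 0.28. Of 17 other class I presentation genes, none passed in a diet comparison and 6 were higher in F1 control mice, against 10.1% of all genes. Of these, 5 were H2 genes whose near-identical copies can share reads.

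Some markers of macrophages and monocytes were lower in pLPD offspring than in offspring of CD fathers. Of 8 macrophage and monocyte genes, 4 were lower in pLPD offspring past the threshold (Adgre1, Csf1r, Lyz2 and Cd163), against 1.02% of all genes. In 7 of the 8 the log2 fold change was negative. The remaining 1 went the other way, at 0.62 with an unadjusted p under 0.05 in edgeR. The summed level of the 8 was 712 to 791 CPM in pLPD offspring and 992 to 1208 CPM in offspring of CD fathers, without overlap. All 10 T and NK cell genes had positive log2 fold changes in pLPD offspring and none passed, with sums of 307 to 383 CPM against 252 to 308 CPM. Of the plasmacytoid dendritic cell list, for cells that are a main source of type I interferon, 5 of 7 genes were tested and none passed. Its sums were 251 to 300 CPM in pLPD offspring and 255 to 261 CPM in offspring of CD fathers. The sums of the B and plasma cell list (339 to 483 CPM against 343 to 391 CPM) and of the conventional dendritic cell list (116 to 127 CPM against 106 to 135 CPM) overlapped as well. No listed macrophage, T cell or plasmacytoid dendritic cell gene was at 0 in every mouse of a group. The 5 fibroblast and progenitor genes all had negative log2 fold changes and none passed, with sums of 4441 to 5298 CPM in pLPD offspring and 6340 to 11314 CPM in offspring of CD fathers, and the 6 endothelial genes were likewise negative, at 469 to 605 CPM against 555 to 752 CPM. Of 5 epithelial genes, of which 1 was at 0 in every pLPD mouse, 2 were lower in pLPD offspring past the threshold, with sums of 0.153 to 3.25 CPM against 8.56 to 12.8 CPM. The part of these markers in the F1 values of the interferon-stimulated genes was not tested.

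In F0 mice the macrophage and monocyte genes summed to 919 to 989 CPM with the LPD and 985 to 1033 CPM with the CD, and 1 of the 8, Cd163, was lower past the threshold. In 4 of the 8 the log2 fold change was positive, in 1 of them at an unadjusted p under 0.05 in edgeR. Of 8 adipocyte genes, 7 had positive log2 fold changes and 1 was lower past the threshold (−0.78). In the plasmacytoid dendritic cell list 1 of the 6 tested genes out of 7 was lower past it, against 1.32% of all genes. The other signs there were mixed, as 4 of the 6 log2 fold changes were negative and 2 positive (median −0.14). In the fibroblast and progenitor list 1 of 5 genes was lower past it, with 4 negative and 1 positive. The 7 B and plasma cell genes summed to 492 to 508 CPM with the LPD and 372 to 411 CPM with the CD. Of them 1, Ms4a1, was higher past the threshold, against 1.18% of all genes. Of 6 skeletal muscle genes, 4 were lower with the LPD, at sums of 626 to 853 CPM against 1129 to 1713 CPM. The part of these markers in the F0 values of the interferon-stimulated genes was not tested. Between control mice, all 6 muscle genes and 5 of 8 adipocyte genes were lower in F1 past the threshold, against 8.78% of all genes. The adipocyte list summed to 11278 to 12467 CPM in F1 against 14520 to 15310 CPM in F0, while none of the 8 macrophage and monocyte genes passed the threshold. The 5 fibroblast and progenitor genes summed to 6340 to 11314 CPM in F1 and 2140 to 2321 CPM in F0 control mice. Only Col1a1 among them was higher, past the threshold (log2 fold change 3.27). The other 4 were negative, with Dcn lower past the threshold, and the median of the 5 was −0.19. Past the threshold, 2 of 6 endothelial genes and 1 of 10 T and NK cell genes were higher, against 10.1% of all genes. The T and NK cell share was thus near that of all genes. The part of these shifts in the higher F1 level of the interferon-stimulated genes was not tested.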

How the data were processed

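iWAT RNA of 10 male mice was depleted of rRNA and sequenced from directional libraries. Per the labels and the methods of the study, reads were mapped to mm10 in CLC Genomics Workbench. The authors deposited read counts per gene on exons and introns, without normalization, and RPKM values, which the authors derived from total exon reads and exon length. Whether counting used strand is not given in the sources used here.

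Total exon reads were analysed in R 4.3.3 with edgeR 4.0.16 (filterByExpr, TMM, quasi-likelihood F test, two-sided, Benjamini-Hochberg adjustment over all genes tested, threshold 0.05). Each diet comparison was fitted on its own mice, and the interaction and the comparison of control mice were fitted on all 10 libraries. Standard errors were taken as the absolute log2 fold change over the root of the F statistic. CPM are of TMM-normalized libraries, and levels between genes are compared by RPKM, the deposited values averaged. The exact permutation test used log2(CPM + 0.5). The fits were run on simulated counts with the same dispersion for every gene. This does not test the p-values where genes differ in their spread between mice.

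The 37 genes, the pathway and marker lists and the tests were chosen with earlier results of these data known. Members named with a test had an unadjusted p under 0.05 in a diet comparison or the interaction, or were among the 5 largest changes at a mean of at least 1 CPM, or, between control mice, among the 12 smallest p-values. Other members are given by value without a test. Pathway genes were named if they passed the threshold in a diet comparison or had among the smallest p-values of their list, and those named between control mice were chosen after their values were seen.

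Alternatives comprised a likelihood ratio test, DESeq2 1.42.0, its size factors in edgeR, no filter, at least 10 reads in every library, all groups in 1 fit (or the control groups alone), the replicate number as a block, unique reads, exon and intron reads together, limma-trend (limma 3.58.1) on log2 RPKM with 0.1 or 1 added, the exon share as a covariate, and each mouse left out. Intron reads alone were added after seeing the data. The authors' expression value and TPM columns were not used.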

Additional observations from a re-analysis of the deposited data

Results flagged for a closer look

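For 2 genes outside the 37, the diet responses of F1 and F0 mice differed past the threshold in edgeR's test of the interaction of generation and diet. The response of Lgals3bp in F1 minus that in F0 was −0.94 on the log2 scale (adjusted p = 0.0264): it was lower in pLPD offspring, and at 197 to 230 CPM in CD-fed and 213 to 259 CPM in LPD-fed F0 males. The difference for Adgre1, which encodes the macrophage marker F4/80, was −0.70 (adjusted p = 0.0353), with 21.9 to 23.2 CPM in pLPD offspring, 34.4 to 36.1 CPM in offspring of CD fathers, 29.6 to 31.6 CPM in CD-fed and 30.4 to 32.9 CPM in LPD-fed F0 males.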

How the results depend on the processing

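Of 569 refits of 30 named gene and comparison pairs, 501 kept direction and side of the threshold, 56 passed it where the reported fit did not, 5 lost it and 7 reversed. The reversals were all in F1, on intron reads for Irf7 (0.43), Ifit1 (0.19) and Rtp4 (0.28), and with the exon share as a covariate for Ifit1 (0.19), Oasl2 (0.26), Usp18 (0.23) and Gbp3 (0.11). The cause was not tested.

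For the paternal diet in F1, 164 genes and 0 members of the 37 passed, which became 582 and 4 by likelihood ratio test, 375 and 3 by DESeq2, 798 and 11 without filter, 339 and 2 in 1 fit of all groups, and 260 and 3 with the replicate block. All genes numbered 15 with the exon share, where the median of the 37 was 0.23, and 57 on intron reads. Leaving out 1 mouse gave 18 to 510 genes, 0 to 5 members and medians of −0.45 to −0.08. For the F0 diet, 364 genes and 2 members became 983 and 7 by likelihood ratio test, 1343 and 8 without filter, 175 and 0 in 1 fit, 1391 and 8 with the replicate block, and 834 and 5 with the exon share. All genes numbered 82 and 47 by limma with 0.1 and 1 added, and 1 member passed on intron reads. Leaving out 1 mouse, which leaves a lone mouse assumed to vary like the other group, gave 107 to 475 genes, 1 to 2 members and medians of −0.21 to −0.05.

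For the interaction, 189 genes and 0 members became 546 and 1 by likelihood ratio test, 353 and 1 by DESeq2, and 890 and 4 without filter. All genes numbered 74 and 109 by limma, 1 member passed on unique reads, and the median was 0.22 with the exon share. Leaving out 1 mouse gave 19 to 395 genes, 0 to 2 members and medians of −0.18 to 0.10. Between control mice, 2857 genes and 19 members became 1606 genes with the exon share, 1776 genes and 4 members on intron reads (median 0.40), and 9 and 8 members by limma. Leaving out 1 mouse gave 793 to 3030 genes, 6 to 21 members and medians of 0.43 to 0.74.

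Over all genes, same-numbered mice hardly deviated together, with r of 0.0004 to 0.0545 in F1 and 0.0461 in F0. With 2 mice per F0 group, the r of unlike numbers (−0.0461) differs from this in sign only. Among the 37 genes, replicate 2 had the highest median relative to the F1 mean in both F1 groups (0.47 and 0.12). With the replicate block, 17 of the 37 were lower in F1 at an unadjusted p under 0.05 in edgeR, against 11 without it. Whether replicate numbers pair the mice is not settled by these values. Limma on log2(RPKM + 0.1) moved the median of all genes in F1 to −0.15, where that of the 37 was −0.37. With 0.1 added it called 2 genes higher and 115 lower in F1, against 20 and 144 in the edgeR fit, and 702 higher and 1432 lower between control mice, against 1531 and 1326.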
